A study of Mus musculus with 18 samples.

Results

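The 100 genes described here are those whose RNA was higher in the retinas of light-exposed mice than in naïve retinas both with vehicle and with TD139. They were chosen by a rule on the measured counts. A gene needed 50 or more counts per mouse on average over 9 mice, and every vehicle-treated and every TD139-treated mouse had to lie above every naïve mouse in CPM (counts on a gene scaled to the library's total). Of 23420 gene symbols in the count tables, 13116 met the count minimum and 530 of those, or 4.04%, also met both separations. The 530 genes were ranked by the smaller of their mean CPM ratios, vehicle to naïve or TD139 to naïve, and the first 100 were taken. All 100 also passed the filter on low counts of the statistical fit. The differences from naïve mice therefore chose the members and are given as a description, and no test on them is used to support a statement.

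RNA was sequenced from whole retinas of young adult wild-type BALB/cJ mice, an albino strain that is sensitive to light, in 3 groups of 3. The labels give naïve mice no light and no treatment, vehicle-treated mice received DMSO and TD139-treated mice received TD139 at 15 mg/kg in DMSO, by daily intraperitoneal injection begun the day before light. Both injected groups were exposed to white light (15000 lux, 1 h) and examined on day 4 after it. Light and treatment differ together between naïve and treated mice, so their parts cannot be told apart, whereas vehicle-treated and TD139-treated mice differ by design in the compound.

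Bright light damages the photoreceptors of albino mice. Müller glia, which span the retina, and microglia, its resident phagocytes, respond to the damage with new programmes of expression, and blood-derived macrophages can enter. Galectin-3 is a lectin of reactive phagocytes that binds β-galactosides, and TD139 is a small molecule that blocks its sugar-binding site. The study asked how the compound alters the retinal response to light, and the 100 genes are those found above naïve mice under both treatments.

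The members with the largest ratios and those that bind or send signals are illustrated by their promoters, taken from RefSeq on GRCm38.p6 as 250 bases before to 50 bases after the start of the gene. Of the members, 77 had an entry, with 108 windows in all. The windows of Mpeg1 (the gene of a pore-forming protein of phagocytes), Samd5, Kitl (stem cell factor), Il6st (the receptor subunit gp130) and Gatm (the enzyme of the first step of creatine synthesis) are printed because the results below turn on these genes, and they show how differently the members begin. Capitals mark the GC box GGGCGG, the CCAAT box CCAAT and the TATA box TATAAA on either strand. No motif contains another, and overlapping matches of the GC box were each counted.
Mpeg1 (chr19:12460520-12460819, plus strand): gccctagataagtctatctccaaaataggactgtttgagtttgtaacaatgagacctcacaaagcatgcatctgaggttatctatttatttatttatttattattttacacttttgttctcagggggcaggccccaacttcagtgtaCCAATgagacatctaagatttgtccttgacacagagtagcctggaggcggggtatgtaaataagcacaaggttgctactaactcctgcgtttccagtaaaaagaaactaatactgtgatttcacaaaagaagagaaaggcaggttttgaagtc
Samd5 (chr10:9675159-9675458, minus strand): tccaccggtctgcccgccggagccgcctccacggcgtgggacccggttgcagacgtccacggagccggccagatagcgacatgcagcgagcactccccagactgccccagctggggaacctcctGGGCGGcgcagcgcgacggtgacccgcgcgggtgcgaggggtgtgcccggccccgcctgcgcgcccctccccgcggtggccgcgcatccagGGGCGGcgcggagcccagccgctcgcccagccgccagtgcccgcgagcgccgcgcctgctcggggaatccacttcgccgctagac
Kitl (chr10:100015571-100015870, plus strand): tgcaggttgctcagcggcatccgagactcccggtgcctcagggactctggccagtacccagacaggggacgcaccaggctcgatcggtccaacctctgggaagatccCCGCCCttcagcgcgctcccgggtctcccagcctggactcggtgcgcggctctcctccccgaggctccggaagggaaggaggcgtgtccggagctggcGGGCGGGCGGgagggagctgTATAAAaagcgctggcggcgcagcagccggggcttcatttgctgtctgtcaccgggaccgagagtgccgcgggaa
Il6st (chr13:112463820-112464119, plus strand): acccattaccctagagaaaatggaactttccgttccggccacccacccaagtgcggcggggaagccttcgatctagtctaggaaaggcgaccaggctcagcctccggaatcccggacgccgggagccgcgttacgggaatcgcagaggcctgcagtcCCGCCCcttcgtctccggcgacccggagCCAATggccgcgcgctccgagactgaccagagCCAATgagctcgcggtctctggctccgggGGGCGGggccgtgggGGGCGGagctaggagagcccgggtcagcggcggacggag
Gatm (chr2:122611228-122611527, minus strand): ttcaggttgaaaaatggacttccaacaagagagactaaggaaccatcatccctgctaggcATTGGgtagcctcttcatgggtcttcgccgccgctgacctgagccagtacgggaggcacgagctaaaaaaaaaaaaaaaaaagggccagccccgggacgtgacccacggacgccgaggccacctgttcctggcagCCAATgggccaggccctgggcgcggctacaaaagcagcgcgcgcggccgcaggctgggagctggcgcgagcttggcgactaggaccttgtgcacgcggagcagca

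The windows of Samd5, Kitl and Il6st are rich in G and C, at 77.3, 68.7 and 68.3%, and hold 2, 3 and 3 GC boxes. The window of Mpeg1 has 39% G and C and no GC box, and the window of Kitl alone among the 5 holds the letters of a TATA box. Over all member windows, 46.3% held a GC box, compared with 62.3% of 12593 windows of genes that met the count minimum and 35.7% of 32851 windows in the table. A CCAAT box was found in 41.7% of member windows and in 37.3% of those of genes over the minimum, and a TATA box in 8.33 and 7.27%. The letters GAGGAA, a purine-rich form of the GGAA core of ETS factors, stood in 27.8 and 26.0%, and the palindrome TTCNNNGAA of STAT factors in 5.56 and 6.73%. These are letter matches in windows of 300 bases.

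As a group, the members were moderately higher than in naïve mice. The median ratio of mean CPM was 1.71 for vehicle-treated mice, with a range from 1.45 to 23.1, and 1.63 for TD139-treated mice, with a range from 1.45 to 4.77. Both ratios reached 1.5 in 77 members and 2 in 4 members, Mpeg1, Myo7a, Wnt5a and Samd5. The ratio that set the rank was the vehicle ratio in 44 members and the TD139 ratio in 56. On the log2 scale of the fit, the median difference from naïve mice was 0.68 with vehicle and 0.69 with TD139, against medians of 0.00 over 15196 tested genes in both comparisons. edgeR called 40 members higher with vehicle and 38 higher with TD139 than in naïve mice, where 4.91 and 2.72% of all tested genes were called in that direction. Since the rule used both contrasts, nothing is read from these counts.

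**Figure D1:**
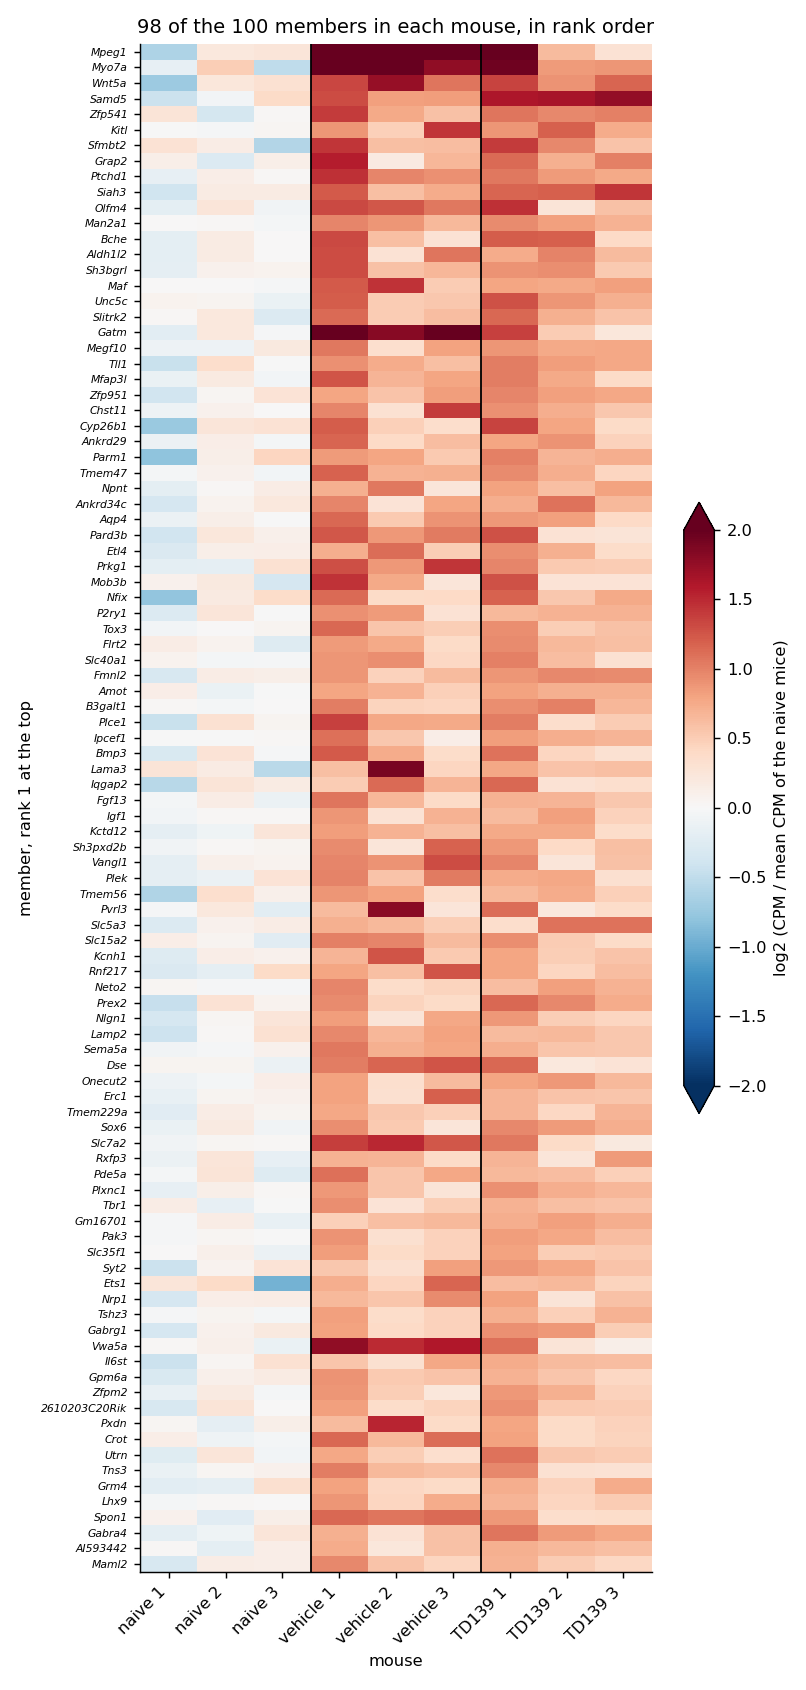
Each row is one of 98 members in rank order and each column a mouse, and the colour gives log2 of CPM over the mean CPM of the naïve mice, cut at 2 and -2. Vehicle mouse 1 and TD139 mouse 1 are the deepest red columns of their groups, being the highest of their group in 70 and 75 of 100 members.

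The last members taken and the first genes left out had nearly the same ratios. Ranks 96 to 100 were Lhx9, Spon1, Gabra4, AI593442 and Maml2, with smaller ratios between 1.45 and 1.46. The first 5 genes left out were Efnb2, Rhobtb3, Trpm3, Tanc1 and Dock11. Efnb2, an ephrin ligand, had ratios of 1.53 with vehicle and 1.45 with TD139, and Dock11 had 1.44 and 1.55. The 100 genes thus have no natural edge at their lower end.

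The excess of a gene is its mean CPM with vehicle minus its mean CPM in naïve mice, and the share kept is the TD139 minus naïve difference in percent of that excess. The median over the members was 90.7% and the values ran from 16.2% for Gatm, or 6.63% without TD139 mouse 1, to 218% for Samd5. In 44 members the TD139 mean lay above the vehicle mean, 46 members kept 50 to 100%, and 10 kept less than 50%. The name given to the set, genes that stay high under TD139, therefore describes 90 members on the CPM scale and describes the other 10 poorly. With a correction for the length and GC content of transcripts, described below, it describes 40 members. Without TD139 mouse 1, 23 members kept less than 50%. Without vehicle mouse 2 the number was 10, with Vangl1 in place of Lama3.

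**Figure D2:**
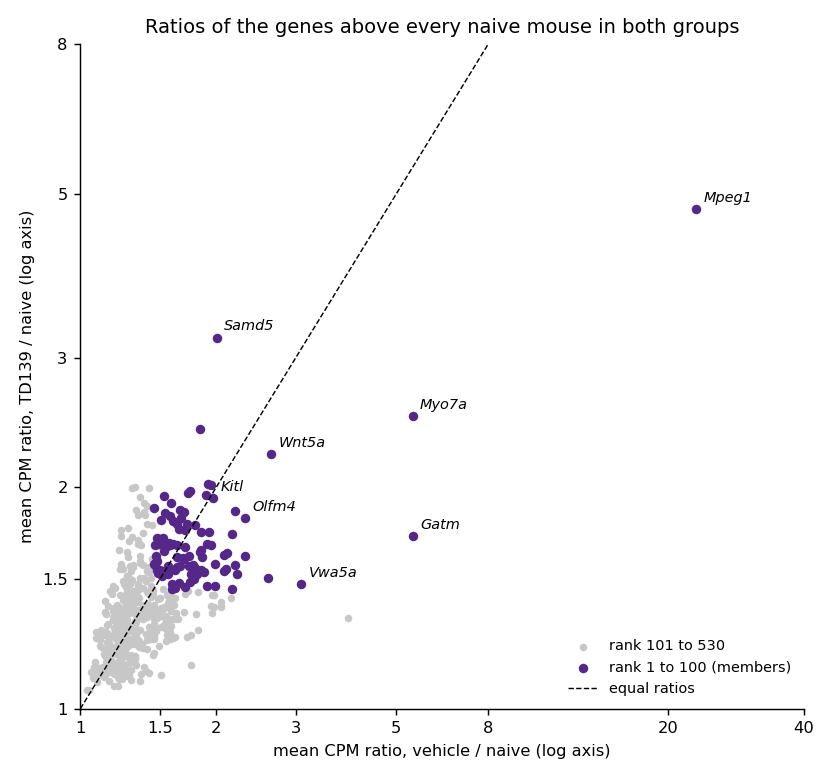
The mean CPM ratio to naïve mice under vehicle (horizontal) and under TD139 (vertical) is shown on log axes for the 530 genes that met the rule, with the 100 members in purple and the line of equal ratios dashed. Most members lie near the line between 1.45 and 2.5 on both axes, while Mpeg1, Myo7a, Gatm and Vwa5a lie far to its right and Samd5 lies above it.

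Members were next compared between TD139-treated and vehicle-treated mice, the contrast on which the rule did not rank. The ranking on the smaller ratio still draws both groups together, because a gene with a large difference between them needs a large ratio in the lower group. edgeR called 4 of 100 members lower with TD139 and 0 higher at an adjusted p under 0.05, where 16.2% of all tested genes were called lower and 17.2% higher. At an unadjusted p under 0.05, 8 members were lower and 3 higher, against 23 and 23.4% of all tested genes. DESeq2 called 8 lower and 1 higher, against 18.7 and 19.9% of all tested genes, and limma voom 11 and 3, against 22.8 and 23.4%. The log2 fold change was above 0 in 53 members and under 0 in 47, with a median of 0.03 against -0.02 over all tested genes. All TD139-treated mice lay above all vehicle-treated mice in 4 members, Samd5, Fmnl2, Gm16701 and Gabra4, and below them in 6, Mpeg1, Gatm, Lamp2, Slc7a2, Vwa5a and Spon1. Among genes over the count minimum, 23.7 and 29.8% did so. Of these 10 members, Fmnl2, Gm16701 and Lamp2 are named after their values were seen. A single gene tested on its own with 3 against 3 mice cannot reach an exact permutation p below 0.1.

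The 4 members called lower with TD139 were Gatm, Vwa5a, Slc7a2 and Spon1. Gatm lies on chromosome 2 at 122594467 to 122611303 (GRCm38, minus strand). Its CPM was 1.89, 2.53 and 2.15 in naïve, 12.4, 7.76 and 15.5 in vehicle-treated and 5.62, 3.11 and 2.55 in TD139-treated mice. Every vehicle-treated mouse was above every TD139-treated mouse, and the lowest TD139-treated mouse barely passed the highest naïve mouse. The fold change of TD139 against vehicle was -1.58 ± 0.30 on the log2 scale (SE, n = 3 per group, edgeR quasi-likelihood test, adjusted p = 0.00624), and Gatm kept 16.2% of its excess, or 6.63% without TD139 mouse 1.

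Slc7a2, a transporter of arginine and other cationic amino acids and thus of a substrate of Gatm, lies on chromosome 8 at 40862396 to 40922308. It stood at 22.6, 24.5 and 24.1 CPM in naïve mice, at 61.6, 67.2 and 56.4 with vehicle and at 49.2, 30.9 and 27.2 with TD139. TD139 mouse 1 was close to the vehicle-treated mice and the other two were close to naïve mice. The log2 fold change was -0.72 ± 0.17 (SE, edgeR adjusted p = 0.0117), and 31.7% of the excess was kept, or 14.0% without TD139 mouse 1. Without TD139 mouse 2 the adjusted p of Slc7a2 in edgeR was 0.0584, and without TD139 mouse 3 it was 0.0514.

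Vwa5a, on chromosome 9 at 38718268 to 38743337, had 8.02, 8.48 and 7.23 CPM in naïve mice, 26.9, 22.2 and 24.0 with vehicle and 17.0, 9.40 and 8.62 with TD139. Here too TD139 mouse 1 was the high mouse of its group. The log2 fold change of Vwa5a was -0.99 ± 0.21 (SE, edgeR adjusted p = 0.00809), and it kept 22.9% of its excess, or 6.71% without TD139 mouse 1. Spon1, which encodes the secreted matrix protein spondin 1 and lies on chromosome 7 at 113765998 to 114043370, had 107, 86.2 and 109 CPM in naïve mice. It had 222, 211 and 221 CPM with vehicle and 183, 128 and 129 with TD139. The vehicle-treated mice were close together and all above the TD139-treated mice, with a log2 fold change of -0.50 ± 0.13 (SE, edgeR adjusted p = 0.0149). Spon1 kept 39.1% of its excess, or 23.7% without TD139 mouse 1. Without TD139 mouse 2 or 3 the adjusted p of Spon1 in edgeR was 0.0710 or 0.0684.

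**Figure D3:**
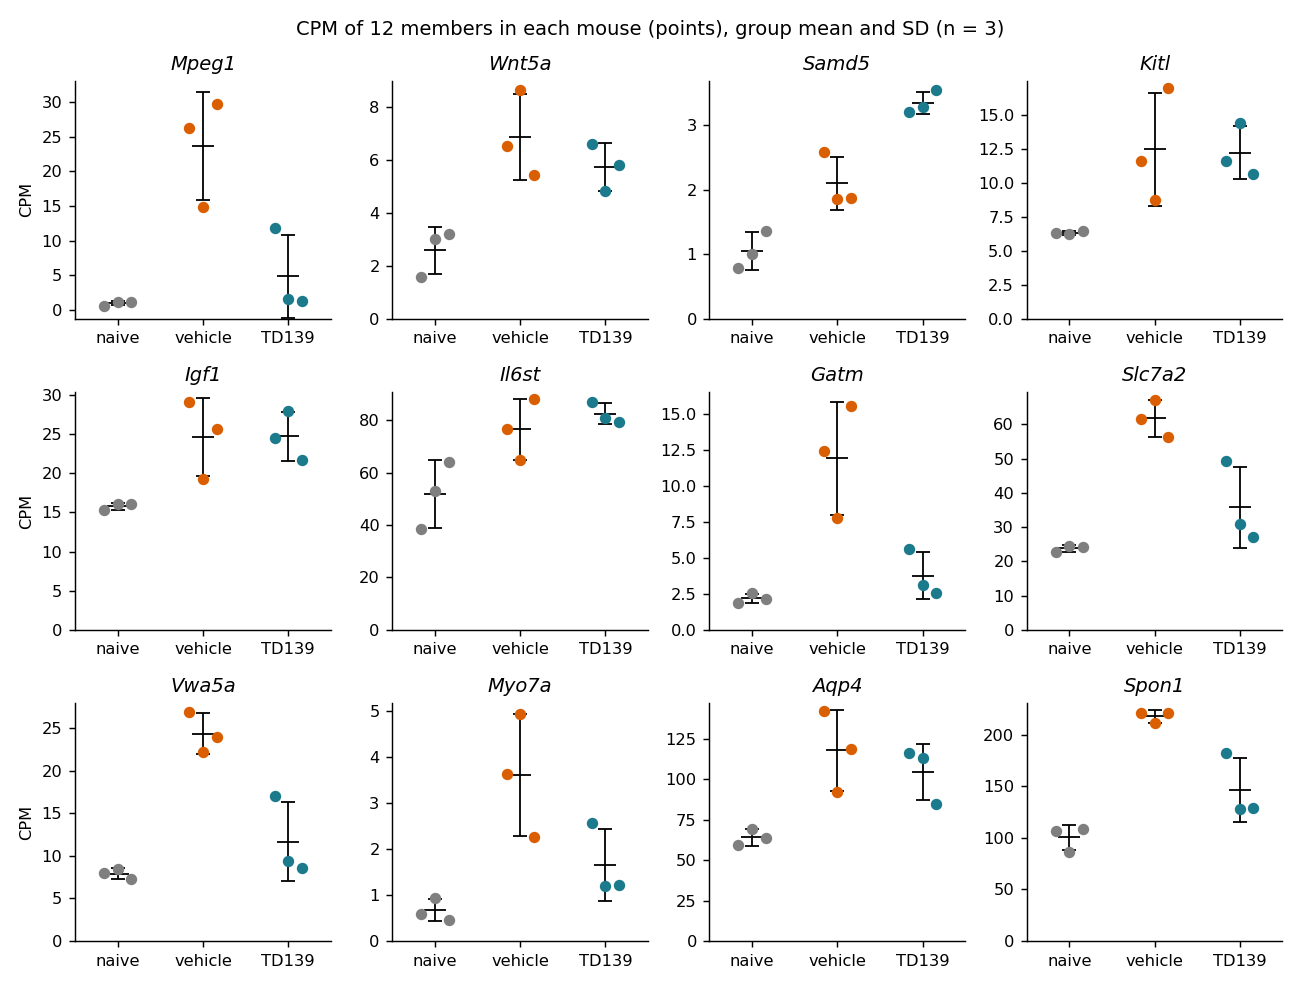
CPM on a linear axis is shown for 12 members in each mouse (points) with the group mean and SD (black, n = 3). Gatm, Slc7a2, Vwa5a and Spon1 have all vehicle-treated mice above all TD139-treated mice, Samd5 has the opposite order, and in Mpeg1 a single TD139-treated mouse at 11.8 CPM stands above the other two at 1.59 and 1.26 CPM.

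A small group of 8 genes was named for roles in phagocytes and blood cell signalling (this and the other groups by role were formed after the names had been seen). The grouping does not say which cells of the retina held their RNA. Mpeg1 ranked first. It had 0.668, 1.19 and 1.22 CPM in naïve mice, 26.3, 14.9 and 29.7 with vehicle and 11.8, 1.59 and 1.26 with TD139. The vehicle-treated mice were all far above naïve mice, whereas TD139 mice 2 and 3 exceeded the highest naïve mouse by little. The share of the excess of Mpeg1 that was kept was 17.1%, or 1.77% without TD139 mouse 1, and the difference between TD139 and vehicle was not called (log2 fold change -2.23 ± 0.80, SE, edgeR adjusted p = 0.0693). Mpeg1 was called lower in 4 of 21 alternatives, by DESeq2, by limma voom, from the counts of flow cell 2 alone and without TD139 mouse 1. With a mouse left out, its adjusted p in edgeR reached 0.174. It was not called with the correction for length and GC content (log2 fold change -2.40, edgeR adjusted p = 0.0840). Without TD139 mouse 1 the difference in Mpeg1 was -3.92 with an adjusted p of 0.00017 in edgeR.

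The marker lists of phagocytes moved with Mpeg1. The summed CPM of 10 microglia markers was 53.1 to 59.7 in naïve mice, 198 to 334 with vehicle and 40.9 to 129 with TD139, with TD139 mouse 1 at 129. For 7 markers of monocytes and macrophages the sums were 1.25 to 2.53 in naïve mice, 98.9, 49.9 and 104.8 with vehicle and 28.7, 1.29 and 1.22 with TD139, and 1 of the 7 was at 0 in every naïve and every TD139-treated mouse. The part of these cells in the level of Mpeg1 was not tested. In whole retinas, a change in the number of cells of a type and a change of RNA per cell cannot be told apart.

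The other members of this group, Plek, Grap2, Lamp2, Ets1, Ipcef1, P2ry1 and Maf, showed no such split, and over the 8 genes a median of 67% was kept. Whether their RNA came from phagocytes was not tested, and the phagocyte marker sums of TD139 mice 2 and 3 were within or below the naïve range. Grap2, an adaptor of lymphoid signalling, had 1.60, 1.23 and 1.61 CPM in naïve, 4.41, 1.68 and 2.34 in vehicle-treated and 3.25, 2.42 and 2.97 in TD139-treated mice. Its vehicle-treated and TD139-treated mice overlapped, and vehicle mouse 1 was the highest. Plek, the pleckstrin of platelets and leukocytes, had ratios of 1.85 and 1.54 and kept 64.2%, and Maf, a transcription factor, had ratios of 2.16 and 1.73 and kept 62.8%. These 2 genes are named for their role after their values were seen.

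**Figure D4:**
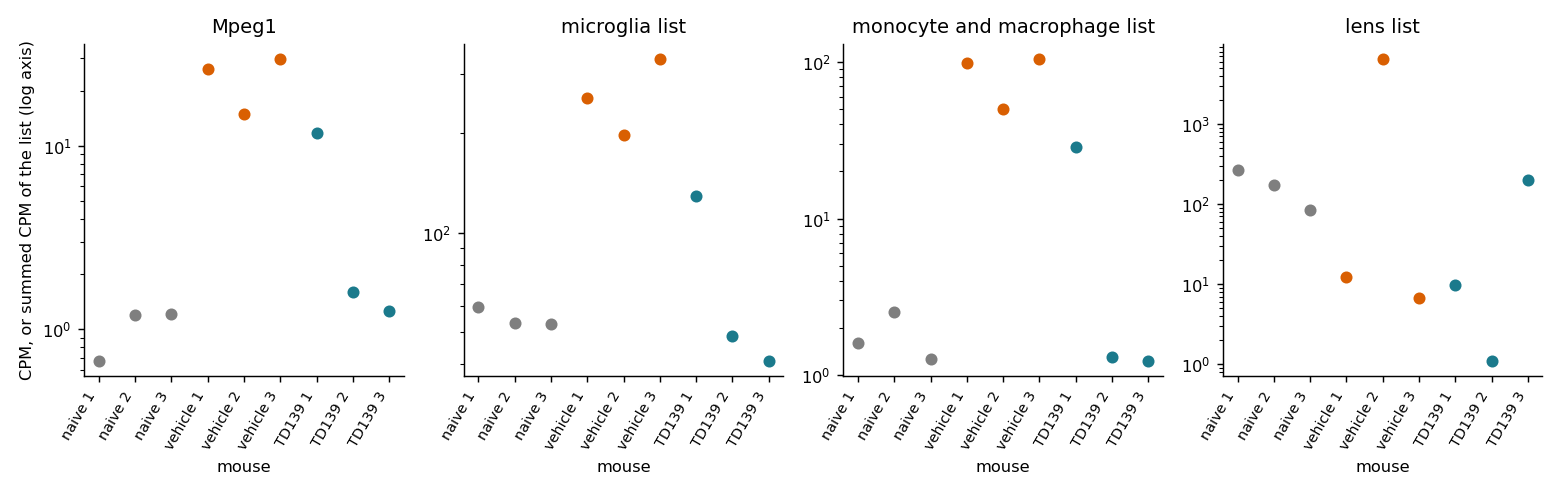
CPM of Mpeg1 and the summed CPM of the marker lists of microglia, of monocytes and macrophages and of lens are shown for each mouse on log axes (grey naïve, orange vehicle, teal TD139). TD139 mouse 1 stands above TD139 mice 2 and 3 in the first 3 panels, and vehicle mouse 2 stands alone in the lens panel at 6438 CPM.

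Secreted factors and their receptors made up 16 members, of which 8 had a TD139 mean above the vehicle mean and 1, Spon1, kept less than 50%. Without TD139 mouse 1, Olfm4, Vangl1 and Bmp3 also kept less than 50%, at 26.6, 31.2 and 38.0%. Without vehicle mouse 2, the TD139 mean of Megf10, Igf1 and Il6st no longer lay above the vehicle mean. The group had ratios to naïve mice from 1.48 to 2.65 with vehicle and from 1.46 to 2.22 with TD139. Beside the genes below it held the Wnt and planar polarity protein Vangl1, the growth factor Bmp3, the protease Tll1, the guidance proteins and receptors Nrp1, Plxnc1, Sema5a, Unc5c and Flrt2, the engulfment receptor Megf10 and the relaxin family receptor Rxfp3. Wnt5a, a ligand of the β-catenin-independent branch of Wnt signalling, had 1.56, 3.01 and 3.18 CPM in naïve, 6.50, 8.62 and 5.43 in vehicle-treated and 6.61, 4.80 and 5.80 in TD139-treated mice. The groups with light overlapped and both lay clear of naïve mice, with 73.9% of the excess kept. Kitl, the ligand of the receptor Kit, had 6.27, 6.21 and 6.47 CPM in naïve mice, 11.6, 8.76 and 16.9 with vehicle and 11.6, 14.4 and 10.6 with TD139. Naïve mice differed little from each other in Kitl and vehicle-treated mice differed widely. Its mean was nearly the same with both treatments, at 12.4 ± 4.15 and 12.2 ± 1.97 CPM (SD, n = 3). Kitl had a log2 fold change of TD139 against vehicle of 0.07, and it was -0.45 once a trend of counts on the length and GC content of transcripts, described below, was corrected for, without a call in either.

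Igf1, the insulin-like growth factor, had 15.3 to 16.1 CPM in naïve, 29.1, 19.2 and 25.7 in vehicle-treated and 24.5, 27.9 and 21.7 in TD139-treated mice and its mean was 24.7 CPM with both treatments. With the same correction Igf1 was called lower with TD139 (log2 fold change -0.54 instead of 0.10, edgeR adjusted p = 0.0214). Il6st, the subunit through which the cytokines of the interleukin-6 family signal, had 38.5, 53.1 and 64.0 CPM in naïve, 76.6, 64.9 and 88.2 in vehicle-treated and 87.0, 80.8 and 79.5 in TD139-treated mice. The highest naïve mouse came within 1 CPM of the lowest vehicle-treated mouse in Il6st, and the log2 fold change of TD139 against vehicle was 0.19 ± 0.16 (SE, edgeR adjusted p = 0.353). Olfm4, which encodes a secreted glycoprotein, had 5.61, 7.58 and 6.12 CPM in naïve, 16.1, 15.2 and 13.4 in vehicle-treated and 17.7, 7.68 and 9.69 in TD139-treated mice. TD139 mouse 1 was the highest of all mice in Olfm4 and TD139 mouse 2 stood next to naïve mice, so that the share kept was 62.0% with mouse 1 and 26.6% without it.

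Transporters, channels and synapse proteins were the largest group, with 19 members, and the median share kept was 87.0%. The group had ratios to naïve mice from 1.45 to 2.6 with vehicle and from 1.48 to 1.87 with TD139. It held the solute carriers Slc7a2, Slc15a2, Slc5a3, Slc40a1 and Slc35f1, the channels and channel-associated proteins Aqp4, Kcnh1, Kctd12, Fgf13, Gabra4 and Gabrg1, the glutamate receptor Grm4, and Nlgn1, Neto2, Syt2, Slitrk2, Ptchd1, Gpm6a and Erc1. Among the genes of this group that the rule for naming did not choose, Slitrk2, an organizer of synapses, had 31.6 to 43.9 CPM in naïve mice, 54.0 to 83.5 with vehicle and 56.5 to 84.4 with TD139, and Slc15a2, a peptide transporter, had 19.0 to 24.4, 34.3 to 44.6 and 28.8 to 42.0. Aqp4, the water channel of Müller glia, had 59.1, 69.5 and 63.7 CPM in naïve, 142, 92.4 and 119 in vehicle-treated and 116, 113 and 84.5 in TD139-treated mice. The injected groups overlapped in Aqp4 and 75.3% of the excess was kept. The log2 fold change of TD139 against vehicle in Aqp4 was -0.09 and was not called, but it was -0.46 and called lower with the correction for length and GC content (edgeR adjusted p = 0.0372). The summed CPM of the 8 Müller glia markers, of which Aqp4 is one, was 4112 to 4636 in naïve mice, 5449 to 6259 with vehicle and 4597 to 5839 with TD139. In TD139 mice 2 and 3 the sum was 4597 and 4702 CPM, just below and just above the highest naïve mouse, whereas Aqp4 itself was above all naïve mice in both. Gpm6a, a membrane glycoprotein of neurons, had 132 to 184 CPM in naïve mice, 235 to 305 with vehicle and 219 to 266 with TD139 and kept 80.0%.

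Gabra4, a subunit of the GABA-A receptor, had 3.82, 4.13 and 5.15 CPM in naïve, 7.13, 5.33 and 6.58 in vehicle-treated and 9.21, 7.88 and 7.47 in TD139-treated mice. All TD139-treated mice were above all vehicle-treated mice in Gabra4, but the difference was not called (log2 fold change 0.45 ± 0.18, SE, edgeR adjusted p = 0.0759), and it was 0.20 with the same correction. Slc5a3, which carries myo-inositol into cells, had 22.2, 21.4 and 19.2 CPM with vehicle and 17.5, 28.8 and 29.1 with TD139, against 11.3 to 15.0 in naïve mice. In Slc5a3 TD139 mouse 1 was the low mouse, unlike in most members. The log2 fold change of TD139 against vehicle in Slc5a3 was 0.36 and was not called in edgeR with all mice. Slc5a3 was called in 2 of 21 alternatives, limma voom and the fit without TD139 mouse 1. With a mouse left out, its fold change ran from 0.22 to 0.58. The same correction turned the fold change to -0.32. Ptchd1, a patched-domain protein of neurons on the X chromosome, had 2.86 to 3.53 CPM in naïve mice, 6.04 to 8.89 with vehicle and 5.45 to 6.65 with TD139, and kept 71.3%.

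The 13 transcription factors and chromatin proteins had the highest median share kept of the groups by role, at 114%, and in 10 of them the TD139 mean lay above the vehicle mean. Of these 10, Tbr1, Tshz3, Zfp541 and Sfmbt2 kept less than 100% without vehicle mouse 2, at 83.4, 94.7, 95.4 and 91.2%, and the rest stayed above. Over the 13 genes the median log2 fold change of TD139 against vehicle was 0.15, and -0.02 with the correction for length and GC content. Among them were Tbr1, Onecut2, Lhx9, Sox6, Tox3, Nfix, Zfpm2, Tshz3, Maml2, Sfmbt2, Zfp541 and Zfp951, and the group had ratios to naïve mice from 1.47 to 1.94 with vehicle and from 1.45 to 2.02 with TD139. Onecut2, a homeobox factor of horizontal cells, had 3.79, 3.94 and 4.44 CPM in naïve, 7.10, 5.11 and 6.29 in vehicle-treated and 6.99, 7.42 and 6.37 in TD139-treated mice. The sums of the 4 horizontal cell markers, which include Onecut2, were 75.3 to 83.7 CPM in naïve mice and 98.5 to 124 CPM with vehicle, and TD139 mice 2 and 3 stood at 83.6 and 85.8 CPM, whereas TD139 mouse 1 lay within the range of the vehicle-treated mice. Onecut2 itself had a log2 fold change of TD139 against vehicle of 0.26, and of -0.47 with the correction for length and GC content, without a call in either. Zfp541, a zinc finger protein, had 1.19 to 1.82, 2.26 to 4.00 and 2.95 to 3.17 CPM in the 3 groups, and Sfmbt2, a Polycomb-related protein, had 0.894 to 1.63, 2.04 to 3.62 and 1.98 to 3.52. Zfp541 kept 108%, or 95.4% without vehicle mouse 2. Sfmbt2 kept 111%, or 91.2% without vehicle mouse 2 and 78.0% without TD139 mouse 1, and its log2 fold change of TD139 against vehicle turned from 0.15 to -0.24 with the correction. Lhx9 kept 74.6% and Maml2, a coactivator of Notch, 76.4%. The difference between TD139 and vehicle was called in none of the 13 in edgeR.

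Genes of the cytoskeleton, adhesion and cell polarity numbered 11, with Myo7a, Utrn, Tns3, Amot, Pard3b, Fmnl2, Iqgap2, Etl4, Pvrl3 and Pak3 among them, and kept a median of 76.6%. Myo7a, an unconventional myosin of the pigment epithelium and photoreceptors, ranked second with 0.594, 0.929 and 0.465 CPM in naïve, 3.62, 4.93 and 2.26 in vehicle-treated and 2.56, 1.19 and 1.22 in TD139-treated mice. The lowest vehicle-treated mouse lay below TD139 mouse 1, and the log2 fold change was -1.06 ± 0.40 (SE, edgeR adjusted p = 0.0598). Myo7a was called lower in 7 of 21 alternatives, DESeq2, limma voom and the correction for length and GC content among them, and its adjusted p over the alternatives ran from 0.00779 to 0.207. The summed CPM of 8 pigment epithelium markers was 128 to 277 in naïve mice, 250 to 506 with vehicle and 132 to 211 with TD139, highest in vehicle mouse 2 like Myo7a. Its part in the level of Myo7a was not tested. Tns3, a protein of focal adhesions, had 83.5 to 97.2, 139 to 186 and 112 to 178 CPM, with TD139 mouse 1 at 178 and the other two at 114 and 112, and kept 66.1%, or 32.2% without TD139 mouse 1. Pak3, a kinase of dendritic spines, had 58.7 to 61.2, 74.6 to 111 and 91.4 to 106 CPM and kept 137%, but with the correction for length and GC content its log2 fold change of TD139 against vehicle turned from 0.25 to -0.39 and was called lower (edgeR adjusted p = 0.0436). Without vehicle mouse 1 Pak3 was called in the other direction, higher with TD139. With a mouse left out, its fold change ran from 0.16 to 0.44.

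The remaining groups by role were small. The 8 matrix proteins and enzymes of matrix and glycans were Npnt, Lama3, Pxdn, Dse, Chst11, Man2a1, B3galt1 and Sh3pxd2b, of which 2, Lama3 and Dse, kept less than 50%, and their median share kept was 69.9%. Lama3 kept 47.1%, or 131% without vehicle mouse 2, which carried RNA of other tissues. The 5 metabolic enzymes were Gatm, Aldh1l2, Bche, Crot and Cyp26b1, and Gatm and Crot kept less than 50%. The 4 genes of cyclic GMP, phospholipase and Rac signalling were Prkg1, Pde5a, Plce1 and Prex2. Prkg1, the kinase activated by cyclic GMP, is named after its values were seen. It had 14.7, 14.9 and 20.9 CPM in naïve, 40.9, 30.7 and 45.1 in vehicle-treated and 33.2, 24.1 and 24.0 in TD139-treated mice. It kept 46.6%, with a log2 fold change of TD139 against vehicle of -0.44 ± 0.17 (SE, edgeR adjusted p = 0.0708). With the correction for length and GC content Prkg1 was called lower, at -0.93 (edgeR adjusted p = 0.0107). Metabolic enzymes other than Gatm included Aldh1l2, a mitochondrial enzyme of folate metabolism, at 2.00 to 2.57 CPM in naïve mice, 2.79 to 5.64 with vehicle and 3.55 to 4.57 with TD139, and Bche, butyrylcholinesterase, at 1.56 to 2.01, 2.19 to 4.45 and 2.36 to 4.13. Injected groups overlapped in both. Man2a1, a mannosidase of the Golgi that trims N-glycans, was the most even of the first 15 members, with 3.68, 3.72 and 3.58 CPM in naïve, 7.17, 6.76 and 5.75 in vehicle-treated and 7.07, 6.46 and 5.95 in TD139-treated mice. It kept 97.6% of its excess. Prex2, an exchange factor of the GTPase Rac, had 15.8 to 26.7, 28.3 to 42.2 and 36.6 to 48.5 CPM and a log2 fold change of TD139 against vehicle of 0.43 ± 0.20 (SE, edgeR adjusted p = 0.114). In 1 of 21 alternatives, without vehicle mouse 1, it was called higher with TD139 (edgeR adjusted p = 0.0389). The correction for length and GC content turned the fold change of Prex2 to -0.23.

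The 16 members outside these groups were Samd5, Siah3, Sh3bgrl, Mfap3l, Ankrd29, Parm1, Tmem47, Ankrd34c, Mob3b, Tmem56, Rnf217, Tmem229a, Gm16701, Vwa5a, 2610203C20Rik and AI593442. They were led by Samd5, which lies on chromosome 10 at 9622936 to 9675208 (minus strand). Samd5 had 0.780, 1.00 and 1.36 CPM in naïve, 2.58, 1.86 and 1.87 in vehicle-treated and 3.21, 3.28 and 3.55 in TD139-treated mice. It was the member with the highest fold change of TD139 against vehicle, at 0.76 ± 0.28 on the log2 scale, which was just short of the threshold (SE, edgeR adjusted p = 0.0534). Samd5 was called higher in 6 of 21 alternatives, DESeq2 and limma voom among them, and its adjusted p ran from 0.0146 to 0.447. Siah3, of a family of ubiquitin ligases, had 1.11 to 1.65, 2.22 to 3.44 and 3.29 to 3.93 CPM and the second highest fold change, 0.47 ± 0.26 (SE, edgeR adjusted p = 0.179). Sh3bgrl had 18.6 to 22.6, 31.7 to 52.4 and 30.5 to 40.4 CPM and kept 86.8%. AI593442 had 28.7 to 35.9, 38.4 to 54.8 and 49.7 to 53.6 CPM and kept 127%, or 97.2% without vehicle mouse 2, and the correction turned its log2 fold change of TD139 against vehicle from 0.20 to -0.17.

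The 20 marker lists and 20 pathway lists held 312 genes over the count minimum, of which 4 were members, Aqp4, Onecut2, Il6st and Igf1. That is 1.28%, and the members are 0.762% of all genes over the minimum. The counts called in the lists below stand against 4.91% of all tested genes called higher with vehicle than in naïve mice and 16.2% called lower with TD139 than with vehicle. Among 15 tested genes of glial reactivity, 7 were called higher with vehicle than in naïve mice and 12 lower with TD139 than with vehicle, and none met the rule. Among 11 tested genes of MHC class I antigen presentation these counts were 9 and 11, among 15 complement genes 4 and 5, among 17 interferon response genes 8 and 13, and among 17 genes of reactive microglia 13 and 12. The list of gp130 cytokines and STAT3, to which Il6st belongs, had 17 tested genes, of which 2 were called higher with vehicle than in naïve mice, 9 lower with TD139 than with vehicle and 1 higher. In that list the median log2 fold change of TD139 against vehicle was -0.74 and Il6st had 0.19, which the correction for length and GC content turned to -0.23. In the list of endothelin, FGF and growth factors, to which Igf1 belongs, 3 of 20 genes were called higher with vehicle and 2 lower with TD139 than with vehicle. Lgals3 itself, the gene of galectin-3, had 5.47 to 9.80 CPM in naïve mice, 37.8 to 71.9 with vehicle and 2.67 to 10.9 with TD139, highest in its group in TD139 mouse 1, and was no member.

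The members shared features that the rule did not use. Of the 99 members joined to the annotation, 98 were protein coding and 1, Gm16701, was a long noncoding RNA. Their median transcript length was 5791 bases, compared with 3255 bases over 13020 genes that met the count minimum, and 89 of 99 were longer than that median. The excess was mainly untranslated sequence, with a median of 3726 against 1495 bases, while the coding length was 1721 against 1416 bases. The median GC content of the transcripts was 45.7%, against 50.4%, and the median gene span was 81176 against 25193 bases. All 530 genes that met both separations had a median transcript length of 4901 bases, and the 283 genes below every naïve mouse in both injected groups one of 2311 bases. On the X chromosome lay 8 members, or 8.08%, compared with 3.33% of genes over the minimum. Genes are not independent replicates, so these medians are given without a test.

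Transcript length and GC content also tracked differences between mice over all genes. A smooth trend of log2 counts on length and GC content was fitted in each mouse. Its median over the members was -0.29, -0.11 and 0.03 in naïve, -0.02, -0.11 and -0.16 in vehicle-treated and 0.16, 0.26 and 0.23 in TD139-treated mice. Every TD139-treated mouse was above every other mouse in this trend. With the trend taken out, the median difference of the members from naïve mice was 0.65 with vehicle and 0.36 with TD139 on the log2 scale, against -0.10 and -0.01 over all tested genes. Vehicle-treated mice remained above all naïve mice in 96 members, TD139-treated mice in 46 and both in 44, where 16.1, 9.36 and 2.18% of genes over the count minimum did so. Since the rule used these separations, nothing is read from the counts. The trend and the treatment coincide in these mice, so a trend of technical origin and a response of long transcripts cannot be told apart.

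The comparison of TD139 with vehicle moved in the same way. The median log2 fold change of each group by role was then under 0, from -0.02 in transcription factors and chromatin proteins to -0.61 in cyclic GMP, phospholipase and Rac signalling, where secreted factors and their receptors went from 0.08 to -0.34. After the correction, 14 members had a TD139 mean above the vehicle mean, 26 kept 50 to 100% of the excess and 60 kept less than 50%. The median log2 fold change of TD139 against vehicle was -0.33, against 0.07 over all tested genes, and edgeR called 17 members lower and 0 higher, where 7.71% of all tested genes were called lower and 13.8% higher. At an unadjusted p under 0.05, 33 members were lower and 1 higher, against 13.7 and 24% of all tested genes. Of the 53 members above 0 before the correction, 36 were under 0 after it, Kitl, Onecut2, Il6st, Slc5a3 and Prex2 among them. Igf1 moved from 0.10 to -0.54 and Pak3 from 0.25 to -0.39, and both were then called lower (adjusted p = 0.0214 and 0.0436 in edgeR). Samd5 stayed above 0, at 0.29. All 4 members called lower before the correction remained called, Gatm at -1.55, Vwa5a at -1.24, Slc7a2 at -1.17 and Spon1 at -0.74. Of the first 10 genes when the rule was applied to the corrected values, 9 were members: Myo7a, Samd5, Ptchd1, Zfp541, Siah3, Wnt5a, Gatm, Zfp951 and Tll1. Mpeg1, which ranked first without the correction, was not among these 10 genes.

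**Figure D5:**
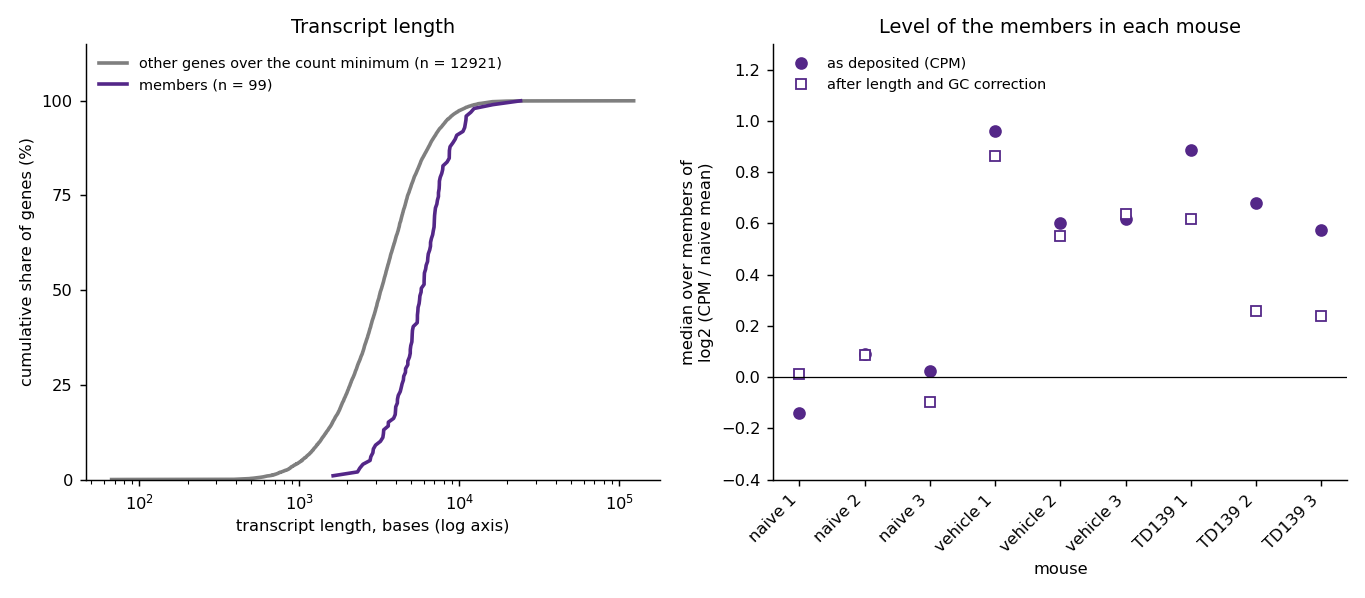
The left panel shows the cumulative share of genes by transcript length on a log axis, for 99 members and the other genes over the count minimum. The right panel shows the median over the members of log2 CPM relative to the naïve mean in each mouse, before (filled) and after (open) the correction for length and GC content. After the correction TD139 mice 2 and 3 drop to 0.26 and 0.24, below all vehicle-treated mice, whereas TD139 mouse 1 is at 0.62.

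The libraries held 26171887 to 30201517 counts on genes, and the member with the fewest had a mean of 54.1 counts per mouse. Each mouse stands for 1 replicate. Rod marker sums were 67979 to 77135 CPM in naïve mice, 43227 to 57337 with vehicle and 59391 to 68397 with TD139. They were lowest with vehicle, and the part of the rod share in the members' CPM was not tested. Vehicle mouse 2 carried RNA of other tissues, with lens markers at 6438 CPM against 1.09 to 268 in the other mice, skeletal muscle markers at 869 against 6.85 to 17.1 and surface epithelium markers at 372 against 0.229 to 25.1. Lama3, Pvrl3 and Pxdn, named after their values were seen, were highest in that mouse, with Lama3 at 6.61 CPM against 2.69 and 2.37 in the other vehicle-treated mice. The members' spread was widest with vehicle, with a median coefficient of variation of 21.2%, compared with 10.2% over genes that met the count minimum.

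The members depend on single mice to different degrees. Of the 100 members, 23 were among the first 100 in each of the 9 rankings that left out a mouse. Mpeg1, Wnt5a, Samd5, Zfp541 and Kitl were among these, whereas Myo7a and Gatm were not. The separation of Mpeg1 was nonetheless narrow, with 33 counts (1.26 CPM) in TD139 mouse 3 and 34 counts (1.22 CPM) in naïve mouse 3. Without TD139 mouse 1, Mpeg1 kept 1.77% of its excess. Both flow cells gave fewer separated members when used alone, 75 and 70 of 100. Exons of 10 members overlap those of another counted gene, namely Aldh1l2, Gabra4, Ipcef1, Kctd12, Nfix, Nrp1, Pde5a, Plek, Sh3bgrl and Slc5a3. Whether the counting used the strand is not given in the sources used here, so reads of these genes may be shared with their neighbours.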

How the data were processed

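Poly(A) RNA of retinas from 9 mice was sequenced on 2 flow cells. The deposited tables, 1 per run, hold unscaled whole-number counts of reads per gene made by the authors with BaseSpace RNA Express. The study's data statement calls the deposited counts normalised with DESeq2, but the values are whole numbers in every table and were used as counts. The submitters' processing notes name the mouse build mm10, and the annotation used for counting is not given in the sources used here. Counts were added over the 2 runs of each mouse, which is 1 replicate. Reads that met no gene (16.5 to 22.8%) and ambiguous reads (0.303 to 0.471%) were left out.

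CPM were computed over gene rows. Testing was done in R 4.3.3 by edgeR 4.0.16 after filterByExpr and TMM with the robust quasi-likelihood F test, all 3 groups in 1 fit, and p-values adjusted by Benjamini and Hochberg over 15196 genes. Alternatives were DESeq2 1.42.0, limma 3.58.1 voom, other scalings, filters and samples, and a spline with 4 degrees of freedom on transcript length and GC content per mouse, entered as an offset. On simulated counts for TD139 against vehicle the fit found 168 of 200 changed genes with 9 false calls among 15071. The members' log2 fold changes of TD139 against vehicle had quartiles of -0.16 and 0.19. How many differences of that size the fit would find was not tested.

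Symbols were joined to GENCODE on GRCm38 (98.3%). Promoters came from RefSeq on GRCm38.p6. Genes named by rule are the first 15 members, the last 5 members and the first 5 genes left out, the 5 lowest and 5 highest fold changes of TD139 against vehicle, the 5 with the highest mean CPM and list members. Other members are named for their role or after their values were seen. Of the members, 2 count in the totals and are not reported here. The members, lists and groups by role were chosen with earlier results of these data known. Depth was 26171887 to 30201517 counts, and a count of 3 stands for 0.0993 to 0.115 CPM, which covers counting error only.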

Additional observations from a re-analysis of the deposited data

Results flagged for a closer look

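The difference between TD139-treated and vehicle-treated mice, both exposed to light, passed the test in 4 of 100 members, all lower with TD139. Over all tested genes, 16.2% were called lower. On the log2 scale the difference was -1.58 for Gatm, -0.99 for Vwa5a, -0.72 for Slc7a2 and -0.50 for Spon1 (edgeR quasi-likelihood test, adjusted p = 0.00624, 0.00809, 0.0117 and 0.0149). In each of these genes 3 of 3 vehicle-treated mice were above 3 of 3 TD139-treated mice, and TD139 mouse 1 was the highest of its group.

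Reads that fell outside genes were more frequent with TD139. They made up 21.3 to 22.8% in TD139-treated, 19.1 to 19.9% in naïve and 16.5 to 19.4% in vehicle-treated mice, so that the lowest TD139-treated mouse, at 21.3%, was above every other mouse. The part of this difference in the members' levels was not tested. No outlier test on single mice was run in groups of 3.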

How the results depend on the processing

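The log2 fold changes of Gatm and Vwa5a for TD139 against vehicle passed the threshold in all 21 alternatives, and those of Slc7a2 and Spon1 in 19, failing without TD139 mouse 2 and without TD139 mouse 3. The number of members called lower with TD139, 4, became 8 with DESeq2, 11 with limma voom and 17 with the correction for length and GC content, and it ran from 2 (without TD139 mouse 2 or 3) to 11 (without TD139 mouse 1). The number called higher, 0, was 1 with a minimum of 50 counts, DESeq2, only the 2 groups compared or flow cell 2 alone and 3 with limma voom, and it ran from 0 to 7 with a mouse left out. The 7 arose without vehicle mouse 1, the 1 without naïve mouse 1, naïve mouse 3 or TD139 mouse 1. The share of all tested genes called was not taken for fits with a mouse left out, another filter, only 2 groups or a single flow cell. No count from those fits, here or below, is read as a result about the members. The correction turned the log2 fold change of Igf1 to -0.54 and that of Pak3 to -0.39, whereas Pak3 was called higher without vehicle mouse 1.

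Against naïve mice, where the rule chose the members, 65 and 73 were called higher with vehicle by DESeq2 and limma voom instead of 40 (8.92 and 12.3% of all tested genes), and 0 (without naïve mouse 2) to 50 with a mouse left out. With TD139 instead of 38, DESeq2 called 79 and limma voom 76 (9.4 and 19.9% of all tested genes). With only the 2 groups compared edgeR called 0 members, and the share of all tested genes was not taken. With the correction edgeR called 0 members and 0% of all tested genes, and 39 members had an unadjusted p under 0.05. Leaving out a mouse gave 0 to 51, with 0 without naïve mouse 1 or 2, vehicle mouse 2 or TD139 mouse 2 or 3. The vehicle count was 6, 0 and 8 without naïve mouse 1, 2 and 3, and 8 and 11 without vehicle mouse 1 and 3. The correction moved the median log2 fold change of TD139 to 0.36 against naïve mice and to -0.33 against vehicle, while leaving out mice gave 0.65 to 0.77 and -0.02 to 0.16.

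Applied again, the rule kept 65 members on flow cell 1, 59 on flow cell 2, 42 with the correction and 45 (without naïve mouse 3) to 81 with a mouse left out. It kept 57 without naïve mouse 2, 66 without vehicle mouse 2 and 74 to 81 with other scalings or count minimums. With the correction 14 members had a TD139 mean above the vehicle mean, 26 kept 50 to 100% and 60 less. With a mouse left out these counts ran from 33 to 60, from 27 (without vehicle mouse 1) to 54 and from 6 (without TD139 mouse 2) to 23 (without TD139 mouse 1). The cause of these shifts was not tested.

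Whether the replicate numbers of the labels pair the mice cannot be settled from the counts. Correlations of the deviations ran from -0.26 to 0.28 for same-numbered mice and from -0.28 to 0.23 for differently numbered mice. Deviations from a mean of 3 mice are tied to each other, so these values cannot exclude a pairing. With the replicate number as a block, edgeR called 5 members lower and 0 higher with TD139 than with vehicle, 29 higher with vehicle and 0 higher with TD139 than in naïve mice, where 15.4, 16, 3.68 and 0% of all tested genes were called. With the block and the correction together the counts were 21 and 0, 64 and 0, against 7.07, 12.5, 5.92 and 0% of all tested genes, the median log2 fold change was 0.36 for TD139 against naïve mice and -0.31 against vehicle, and Igf1 and Pak3 stood at -0.54 and -0.40.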
